A study of Homo sapiens with 12 samples.

Results

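Aminoacyl-tRNA synthetases attach each amino acid to its tRNA and so supply the ribosome with charged tRNA. Human cells keep separate enzymes for the cytosol and for the mitochondrial matrix, and nearly all of both kinds are encoded in the nucleus by different genes. Some genes, such as GARS1 and KARS1, make both forms, and there is then no second gene. Several cytosolic enzymes sit together in the multi-synthetase complex, and many of the cytosolic genes are known targets of the transcription factor ATF4. ATF4 is translated when amino acids run short and the eIF2 alpha kinases phosphorylate eIF2 alpha.

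The genes described here are the 35 named synthetase genes of both compartments, 19 cytosolic and 16 mitochondrial, the latter with symbols that end in 2. Each gene was represented by the probe set that is annotated to it alone and that had the highest mean. A value was obtained for 32 of the 35 genes (17 cytosolic and 15 mitochondrial) among 19775 genes on the arrays. MARS1, QARS1 and TARS2 lie on 3, 1 and 1 probe sets that are annotated to more than 1 gene, so they have no value here.

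RNA was measured on 12 oligonucleotide arrays, 6 from Hs578T cells and 6 from BT-20 cells, both established lines of human breast carcinoma. All cells, controls included, had received 200 nM of a DNA oligonucleotide with the liposomal reagent DOTAP for 24 h, and no untreated cells or cells with reagent alone were analysed here. M is a double-stranded oligonucleotide with methylated CpG cytosines and U is the same sequence without methylation, each with 2 arrays for each line (set 1 and set 2, labelled as biological replicates). ODN2006 is a single-stranded CpG oligodeoxynucleotide and its control has GpC in place of CpG, each with 1 array for each line. Whether the sets came from separate cultures is not stated further, so p-values measure the spread between these arrays. Values are log2 GCRMA values, in which a difference of 1 is a doubling. The arrays were alike in their medians, from 3.01 to 3.08. The 12 mesenchymal marker genes were all at a log2 value of 5 or above in every Hs578T array and 3 of them were in BT-20. Of the 12 epithelial markers, 12 were at that level in BT-20 and 2 in Hs578T. Of 7 blood and endothelial markers, 0 or 1 were.

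Promoter sequence is shown first because the cytosolic genes are often read together as a group under ATF4. Windows of 300 bases around annotated transcription start sites (250 before and 50 from the start on) were searched for TGATGNAA and its reverse complement TTNCATCA, the core of the element that ATF4 binds with its C/EBP partners. The motif was found in 7 of the 16 cytosolic members with a window and in 1 of the 14 mitochondrial members, against 3.62% of 35116 windows and 4.46% of genes overall. The stretches of 30 bases with the match are given below 5′ to 3′ on the strand of the gene, from RefSeq on GRCh38.p14, with the match in capitals.
TARS1, chr5:33440956-33440985 plus strand: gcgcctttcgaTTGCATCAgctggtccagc
GARS1, chr7:30594834-30594863 plus strand: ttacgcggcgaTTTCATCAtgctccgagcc
IARS1, chr9:92293692-92293721 minus strand: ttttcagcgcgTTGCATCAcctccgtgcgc
CARS1, chr11:3057407-3057436 minus strand: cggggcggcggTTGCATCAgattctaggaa
MARS1, chr12:57488053-57488082 plus strand: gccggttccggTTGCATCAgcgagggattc
AARS1, chr16:70289675-70289704 minus strand: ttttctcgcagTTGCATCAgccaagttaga
NARS1, chr18:57621804-57621833 minus strand: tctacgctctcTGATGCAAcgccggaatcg
YARS2, chr12:32756076-32756105 minus strand: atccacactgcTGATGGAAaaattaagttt

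The first base of the match lay within 33 bases before or 14 bases after the start in 6 of the 7 cytosolic genes. In AARS1 it lay at position -187 and in YARS2 at position -197, where the start is position 0. A match is a description of the letters and not of a bound site.

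The lines were compared with each other first. In the 8 M and U arrays, 11 of 17 cytosolic genes were higher and 4 were lower in Hs578T, while 3 of 15 mitochondrial genes were higher and 9 were lower. The lines differ widely, and limma called 74.6% of the 10410 genes tested (adjusted p under 0.05 by Benjamini-Hochberg), 34.4% as higher and 40.2% as lower. The median log2 difference was 0.53 for the cytosolic genes, -0.68 for the mitochondrial genes and -0.09 for all genes tested. All 32 members entered the test, MARS2 through its level in BT-20 only. Centring each array on housekeeping genes moved the median of all genes to -0.54. The split of all calls went from 3580 higher and 4189 lower to 2377 and 5951. It became 7 higher and 5 lower for the cytosolic genes and 2 higher and 11 lower for the mitochondrial genes. The centring value, a median of 11 genes, was that of PGK1 in every array. PGK1 was itself higher in Hs578T (13.66 to 13.79) than in BT-20 (13.12 to 13.40), so this setting rests on 1 gene.

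**Figure D1:**
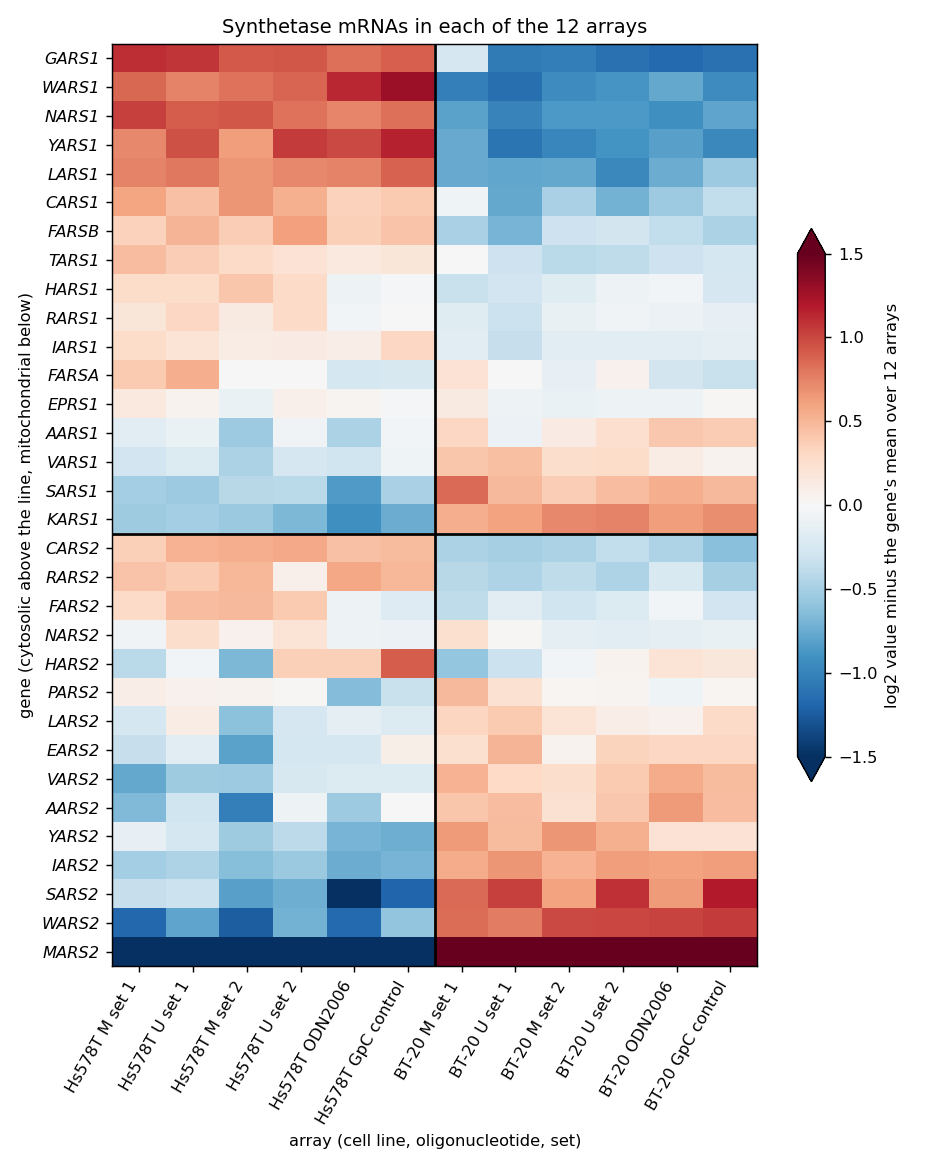
Log2 value of each measured synthetase gene in each of the 12 arrays, minus the mean of that gene over the arrays (red above, blue below, with the end colours for anything beyond the scale bar). Genes are rows, cytosolic above the horizontal line and mitochondrial below it, ordered by the difference between the lines, and the vertical line parts Hs578T from BT-20. Rows at the top of the cytosolic block are red in all 6 Hs578T arrays and rows at the bottom of the mitochondrial block are blue in all of them.

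The largest cytosolic difference was that of GARS1, the glycyl-tRNA synthetase. Over its 6 arrays in Hs578T the lowest, median and highest values of GARS1 were 13.08, 13.17 and 13.35, whereas the BT-20 values were 11.08, 11.16 and 12. The lines did not overlap, and the highest BT-20 value was that of the M array of set 1. GARS1 was 3.67-fold higher in Hs578T (log2 1.88, SE 0.18, adjusted p = 8.48e-05).

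WARS1, the tryptophanyl enzyme, which is also induced by interferon, had 10.44, 10.56 and 10.97 in Hs578T against 8.57, 8.75 and 8.92 in BT-20 as lowest, median and highest. It was 3.53-fold higher in Hs578T (log2 1.82, SE 0.10, adjusted p = 5.17e-06). NARS1, the asparaginyl enzyme, had 13.31, 13.43 and 13.59 in Hs578T against 11.57, 11.71 and 11.78 in BT-20. Neither gene overlapped between the lines, and the 95% interval of the NARS1 difference was 1.59 to 2.01.

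YARS1, the tyrosyl enzyme, had 11.69, 12.04 and 12.23 in Hs578T against 9.98, 10.14 and 10.32 in BT-20, a log2 difference of 1.77 (SE 0.10). LARS1, the leucyl enzyme of the complex, which also senses leucine for mTORC1, had 12, 12.07 and 12.21 against 10.37, 10.57 and 10.79, a log2 difference of 1.55 (SE 0.09). CARS1, the cysteinyl enzyme, had 11.62, 11.77 and 11.94 against 10.51, 10.77 and 11.21, a log2 difference of 1.06 (SE 0.12). All 3 genes were higher in every Hs578T array than in any BT-20 array. The other cytosolic genes called higher were FARSB (the beta subunit for phenylalanine), TARS1, HARS1, RARS1 and IARS1, with log2 differences from 0.39 to 0.90. With housekeeping centring 4 of these calls were lost, as HARS1 went from 0.53 to 0.08, TARS1 from 0.61 to 0.16, RARS1 from 0.40 to -0.05 and IARS1 from 0.39 to -0.06. The call of FARSB was lost with the mean over its probe sets, which gave 0.28 in place of 0.90 (adjusted p = 0.0752).

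KARS1, which charges lysine in both compartments, went the other way. Its lowest, median and highest values were 12.56, 12.87 and 12.97 in Hs578T against 14.03, 14.15 and 14.23 in BT-20, with no overlap and a log2 difference of -1.22 (SE 0.10, adjusted p = 3.38e-05). SARS1, the seryl enzyme, had 11.97, 12.32 and 12.42 against 13.19, 13.30 and 13.67, a log2 difference of -1.01 (SE 0.13). A second SARS1 probe set gave 0.36, and with the mean over both the difference was -0.33 and the call was lost (adjusted p = 0.0533). VARS1, the valyl enzyme, and AARS1, the alanyl enzyme, were also called lower, with log2 differences of -0.65 and -0.37. The adjusted p of AARS1 was 0.038 and rose above 0.05 when single arrays were left out, to as much as 0.118. EPRS1, the fused glutamyl-prolyl enzyme, and FARSA, the alpha subunit for phenylalanine, had log2 differences of 0.08 (95% interval -0.17 to 0.33) and 0.20 (-0.20 to 0.59) and were not called. FARSA and FARSB form 1 enzyme, and whether their differences are unequal was not tested.

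Within the cytosolic group, 3 of the 5 measured genes of the multi-synthetase complex were called higher and 1 lower, with a median of 0.39. Of the 12 free enzymes 8 were called higher and 3 lower, with a median of 0.76. By the structural classes of the catalytic core, over both compartments, 8 of 17 class I genes were called higher and 8 lower, and 6 of 15 class II genes were called higher and 5 lower. Over all genes tested, 34.4% were called higher and 40.2% lower, and no difference between these subgroups was tested.

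MARS2, the mitochondrial methionyl enzyme, had the largest difference of all. Its lowest, median and highest values were 2.72, 3.26 and 3.68 in Hs578T against 6.95, 7.58 and 8.23 in BT-20. Every Hs578T value lay below 5, the level under which values were treated here as low, and every BT-20 value above it. With values under 5 raised to 5, MARS2 was at least 6.85-fold lower in Hs578T, a log2 difference of -2.78.

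WARS2, the mitochondrial tryptophanyl enzyme, had 6.72, 6.98 and 7.36 in Hs578T against 8.73, 8.95 and 9.01 in BT-20. It was 3.68-fold lower in Hs578T (log2 -1.88, SE 0.10, adjusted p = 4.63e-06), the opposite sign to WARS1. SARS2, the seryl enzyme, had 3.71, 4.93 and 5.39 against 6.31, 6.64 and 6.89, a log2 difference of -1.45 (SE 0.15), or -1.41 with values under 5 raised.

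IARS2, the isoleucyl enzyme, had 10.45, 10.60 and 10.74 in Hs578T against 11.72, 11.82 and 11.86 in BT-20, a log2 difference of -1.13 (SE 0.09). YARS2, AARS2, VARS2, EARS2 and LARS2, the enzymes for tyrosine, alanine, valine, glutamate and leucine, were called lower with log2 differences of -0.91, -0.90, -0.89, -0.68 and -0.51. For isoleucine, leucine, tryptophan and tyrosine the cytosolic gene was called higher and the mitochondrial gene lower in Hs578T, although IARS1 had -0.06 with housekeeping centring. Other pairs went the same way. For alanine, serine and valine both genes were called lower, and for cysteine and arginine both were called higher, as were FARSB and FARS2 for phenylalanine. Several of these calls depended on the setting. RARS1 had -0.05 with housekeeping centring, where FARS2 also lost its call. FARSB and SARS1 lost theirs with the mean over probe sets, and AARS1 when single arrays were left out.

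CARS2, the mitochondrial cysteinyl enzyme, ran against its compartment. Its lowest, median and highest values were 9.60, 9.73 and 9.81 in Hs578T against 8.62, 8.77 and 8.87 in BT-20, a log2 difference of 0.95 (SE 0.09, adjusted p = 9.07e-05). RARS2, for arginine, and FARS2, for phenylalanine, were also called higher, with log2 differences of 0.78 and 0.67. The call of FARS2 was lost with housekeeping centring (0.22, adjusted p = 0.118). NARS2, PARS2 and HARS2 were not called, with log2 differences of 0.13, -0.14 and 0.03, and the 95% interval of HARS2 reached from -0.39 to 0.45.

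The ODN2006 and control arrays of both lines did not enter this fit and give the line difference a second time, without a test. The sign was the same in both array pairs for 15 of 17 cytosolic and 14 of 15 mitochondrial genes. The share of all genes tested with such agreement was not counted, so these counts are not particular to the synthetases. The medians of their mean differences were 0.35 and -0.47. Of the genes called, FARS2, RARS1 and HARS1 had the smallest mean differences in these arrays, 0.03, 0.09 and 0.09 on the log2 scale. Over all 6 arrays for each line, 10 cytosolic genes lay wholly higher in Hs578T and 3 wholly higher in BT-20, and among mitochondrial genes 2 and 7 did. The background is 29.1% and 35.9%, or 65.0% together, of the 10543 genes tested over 12 arrays.

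Other parts of mitochondrial translation were read beside the mitochondrial synthetases. Of 12 measured genes for mitochondrial tRNA charging and translation factors, 8 were called lower and 0 higher in Hs578T, with a median of -0.59. Among all genes tested, 40.2% were called lower and 34.4% higher. GATB and QRSL1, subunits of the amidotransferase that completes mitochondrial glutaminyl-tRNA, had log2 differences of -2.92 (SE 0.14) and -1.55 (SE 0.10), and TSFM, the elongation factor Ts, had -1.23 (SE 0.10). GATB ran from 5.05 to 6.27 in the Hs578T arrays and from 8.89 to 9.42 in BT-20. On the cytosolic side, EEF1A2, a tissue-restricted form of the elongation factor that delivers charged tRNA, had a log2 difference of -6.12 (SE 0.50), EEF1D had 0.56 (SE 0.10), and EEF1A1, the common form, had 0.11 (SE 0.08, adjusted p = 0.235).

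The ATF4 pathway was read from lists of genes by function, beside all genes tested, of which 34.4% were called higher and 40.2% lower. Of 12 measured synthetases commonly listed as ATF4 targets, 8 were called higher and 3 lower in Hs578T, with a median of 0.84, and of the 5 other cytosolic synthetases 3 were higher and 1 lower, with a median of 0.40. Of 24 ATF4 targets of amino acid supply and stress, 17 were called higher and 3 lower, with a median of 1.06. ASNS, asparagine synthetase, had a log2 difference of 3.85 (SE 0.25), and ATF4 itself 1.37 (SE 0.13). The list of eIF2 alpha kinases, ATF4 and its regulators, to which ATF4 belongs, had 5 of 13 genes called higher and 6 lower, with a median of -0.37. The 6 measured cytosolic genes with the motif had a median of 0.84 (5 higher, 1 lower), and the 8 with a window and no motif had 0.30 (6 higher, 2 lower). This split was not tested.

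Methylated against unmethylated oligonucleotide asked whether CpG methylation of the delivered DNA changed these genes. In Hs578T, BT-20, both lines together and the difference between the lines, limma called 0 genes of 10410 (0%), so no synthetase passed. At an unadjusted p under 0.05 there were 680, 174, 543 and 258 genes. In the unadjusted count of Hs578T there were 3 mitochondrial synthetases, all lower with M, and 0 cytosolic ones, where 3.54% of all genes tested were lower at that level.

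In Hs578T, 12 of 15 mitochondrial synthetases had lower values with M, 11 of them in both sets, against 35.9% of all genes tested that were lower in both sets, and 2 were higher in both, against 28.4%. Their median log2 difference was -0.23 (all genes -0.01), and -0.09 with values under 5 raised to 5. The 11 genes include MARS2, with values of 3.46 and 3.68, then 3.05 and 3.58, all below 5. They also include SARS2, whose values in set 2 were 4.89 and 4.98. For the cytosolic genes the median was 0.01, with 3 of 17 higher and 6 of 17 lower in both sets.

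AARS2, the mitochondrial alanyl enzyme, had 6.88 (M) against 7.24 (U) in the first set, then 6.51 against 7.46 in the second. The log2 difference was -0.65 (SE 0.17, adjusted p = 0.677). HARS2, the mitochondrial histidyl enzyme, had 7.48 and 7.85 in set 1 and 7.22 and 8.24 in set 2, a log2 difference of -0.70 (SE 0.25, adjusted p = 0.703). Both genes were lowest in the M array of set 2.

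WARS2 had 6.78 (M) against 7.16 (U) in the first set, then 6.72 against 7.25 in the second (log2 -0.45, SE 0.14, adjusted p = 0.682). EARS2 had 6.45 and 6.64 in the first set and 6.0 and 6.54 in the second, and LARS2 had 8.25 and 8.62, then 7.90 and 8.25. Of the 15 mitochondrial genes, 9 had their lowest value of the 4 Hs578T M and U arrays in the M array of set 2, as did 31.6% of all genes tested. These 9 include MARS2 and SARS2, whose values in that array were 3.05 and 4.89, below 5. YARS1, the cytosolic gene with the largest difference in this line, had 11.79 and 12.03 in set 1 and 11.69 and 12.11 in set 2 (log2 -0.33, SE 0.14, adjusted p = 0.758).

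**Figure D2:**
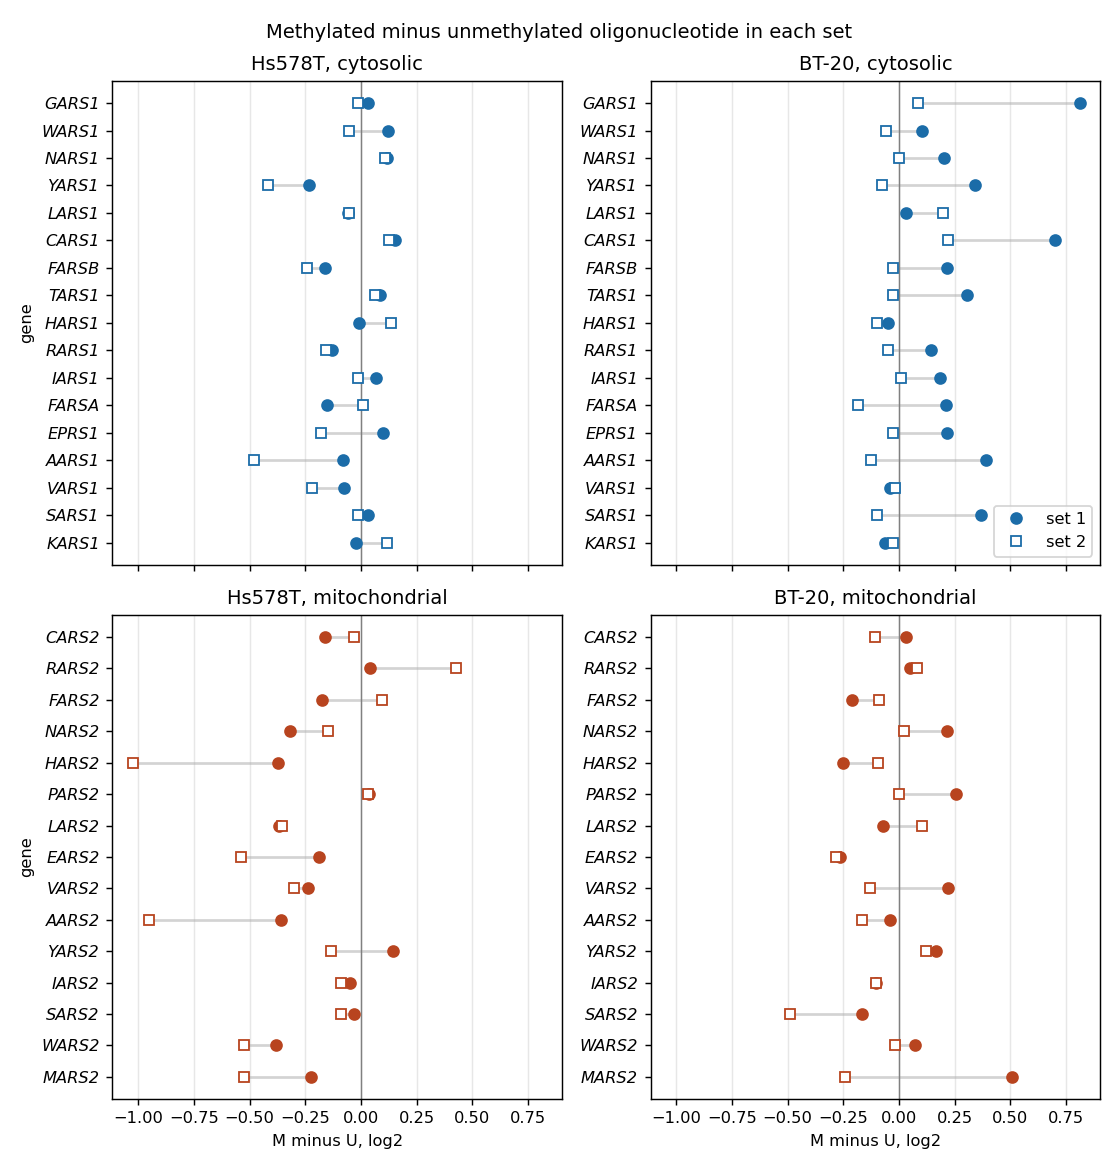
Log2 difference of the M array minus the U array in set 1 (filled circles) and set 2 (open squares), joined by a grey line, for cytosolic (top) and mitochondrial genes (bottom) in Hs578T (left) and BT-20 (right). Most mitochondrial genes lie left of 0 in both sets in Hs578T, and in BT-20 the cytosolic genes lie mainly right of 0 in set 1 and near or left of 0 in set 2.

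In BT-20, the 17 cytosolic synthetases had a median log2 difference of 0.10 (M minus U). The sets differed. In set 1, 14 of 17 were higher with M, with a median of 0.21, where 52.1% of all genes tested were higher. In set 2, 4 of 17 were higher, with a median of -0.03, where 46.0% of all genes tested were. The M array of set 1 was the highest of the 4 BT-20 arrays for 10 of the 17 genes, as it was for 35.2% of all genes tested.

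CARS1 had 11.21 (M) against 10.51 (U) in the first set, then 10.79 against 10.57 in the second (log2 0.46, SE 0.17, adjusted p = 1.00), and was higher with M in both. GARS1 had 12 and 11.18 in the first set, and 11.21 and 11.12 in the second (log2 0.45, SE 0.25). AARS1 had 12.01 and 11.62, then 11.83 and 11.95, and SARS1 had 13.67 and 13.30, then 13.19 and 13.29, so that these genes were higher with M in set 1 and lower in set 2. The BT-20 mitochondrial genes had a median of 0.01, with 3 higher and 6 lower in both sets, where 23.6% and 25.6% of all genes tested were. Of the 17 cytosolic genes 4 were higher and 3 lower in both.

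None of the ATF4 targets passed the test in BT-20 either, and their values are given beside the synthetases. The 24 targets of amino acid supply and stress had a median log2 difference of 0.38 in set 1 and 0.06 in set 2, and the 12 ATF4-listed synthetases had 0.26 and -0.02, where the medians of all genes tested were 0.01 and -0.01. CHAC1, which breaks down glutathione, had 7.14 (M) against 4.92 (U) in the first set, then 5.94 against 4.26 in the second. ASNS had 9.77 and 7.64, then 8.53 and 7.58, and SESN2, a leucine-sensing stress protein, had 7.60 and 4.82, then 6.89 and 5.26. The CHAC1 values with U in both sets and the SESN2 value with U in set 1 lay below 5, so the differences drawn from them are no measured sizes. In that line the mean differences of the 6 cytosolic genes with the motif ran from 0.09 to 0.46, and those of the 8 without it from -0.07 to 0.13. In set 2, AARS1, TARS1 and NARS1 of the genes with the motif had lower values with M, by -0.13, -0.03 and -0.0021, and IARS1 had a difference of 0.0067. This split by motif was not tested.

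The single-stranded ODNs were compared with the double-stranded M and U of set 2, which were run in the same array series. ODN2006 and its control were joined, as were M and U, so the error holds the differences between unlike oligonucleotides. It lacks the spread between cultures, so the p-values may be too small. Kind of oligonucleotide, sequence and culture cannot be told apart. These M and U arrays also stand in the comparison of M with U, so the results share arrays. In Hs578T, limma called 9.03% of 10375 genes (3.87% higher and 5.16% lower), and of the 32 synthetases FARS2 alone was called. The median log2 difference was -0.09 for cytosolic genes, -0.10 for mitochondrial genes and -0.06 for all genes tested. With the mean over all probe sets of a gene, YARS1 and SARS1 were called higher (log2 1.44 and 0.64) and PARS2 lower. FARS2 was not called in that setting. The probe sets of YARS1 differed, with 0.24 for the one used and 2.65 for the second. Proliferation genes moved in the same arrays, 9 of 16 called lower with a median of -0.58.

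FARS2, the mitochondrial phenylalanyl enzyme, had 8.64 and 8.53 with ODN2006 and its control and 9.21 and 9.11 with M and U of set 2. It was 1.49-fold lower with the ODNs (log2 -0.58, SE 0.12, adjusted p = 0.039). Over 16 other settings the adjusted p ran from 0.00913 to 0.113, and the call stood in 7 of them. It ended with housekeeping centring, with the mean over probe sets and without the M, ODN2006 or control array of Hs578T, and also without any of the 4 BT-20 arrays, which leaves its value unchanged. In BT-20 FARS2 had 8.67 and 8.44 with the ODNs and 8.42 and 8.51 with M and U, and the difference between the lines was -0.67 (SE 0.17, adjusted p = 0.178).

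PARS2, the mitochondrial prolyl enzyme, came next in Hs578T, with 5.75 and 6.06 under the ODNs and 6.45 and 6.42 under M and U (log2 -0.53, SE 0.13, adjusted p = 0.0518). In BT-20 its 4 values lay between 6.33 and 6.44. WARS1 had 10.82 and 10.97 against 10.51 and 10.56, a log2 difference of 0.36 (SE 0.11, adjusted p = 0.0946). SARS2, with 3.71 and 4.52 against 4.89 and 4.98, and MARS2 had lower values with the ODNs, but all 8 of these values lay below 5, and with values raised to 5 both differences were 0.

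HARS1 and HARS2 lie head to head on the chromosome, with annotated starts 85 bases apart, and their promoter windows overlap by 184 bases. In Hs578T HARS1 had 10.39 and 10.46 with the ODNs and 10.90 and 10.76 with M and U (log2 -0.40, SE 0.12, adjusted p = 0.0846). HARS2 had 8.25 and 8.79 against 7.22 and 8.24 (log2 0.79, SE 0.33, adjusted p = 0.169). The HARS2 difference was 0.28 without the M array and 1.30 without the U array. Neither gene was called in the main setting. HARS2 was called without the U array (adjusted p = 0.0267), and HARS1 in 2 of 16 other settings, with trend and robust eBayes and with all 12 arrays.

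**Figure D3:**
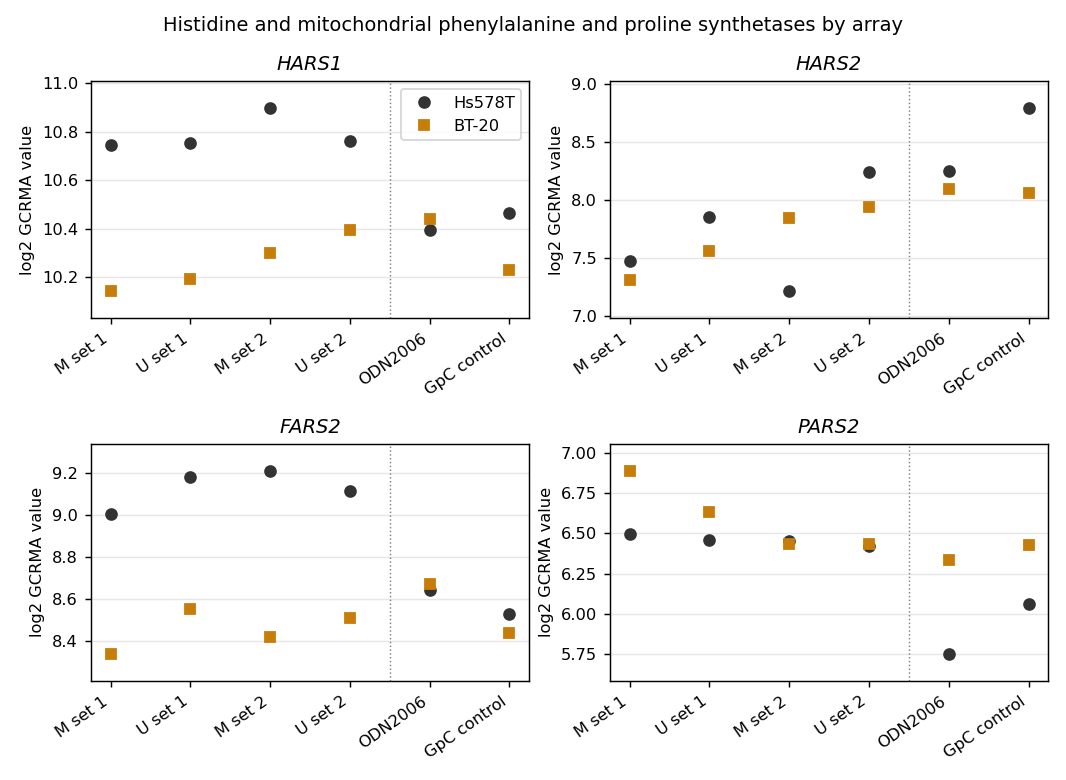
Log2 GCRMA value of HARS1, HARS2, FARS2 and PARS2 in each array, Hs578T as dark circles and BT-20 as orange squares, with the single-stranded ODNs to the right of the dotted line. In Hs578T HARS1, FARS2 and PARS2 lie lower with both ODNs than in all 4 M and U arrays, and HARS2 is lowest in the M array of set 2. The share of all genes with such a pattern was not counted. Each panel has its own axis, which does not start at 0.

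In BT-20, limma called 0 of 10375 genes (0%), with 534 at an unadjusted p under 0.05. YARS2 had 9.78 and 9.77 with the ODNs and 10.21 and 10.09 with M and U (log2 -0.38, SE 0.11, adjusted p = 0.702). MARS2 had 6.95 and 7.09 against 7.46 and 7.70 (log2 -0.56, SE 0.19). FARSA had 9.52 and 9.46 against 9.68 and 9.86 (log2 -0.28, SE 0.11), and in Hs578T it had 9.53 and 9.56 against 9.81 and 9.80 (log2 -0.26, SE 0.11). These genes were picked for their large differences, and none was called. Of all genes tested 0.27% differed between the lines in this comparison, and 0 synthetases did.

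**Figure D4:**
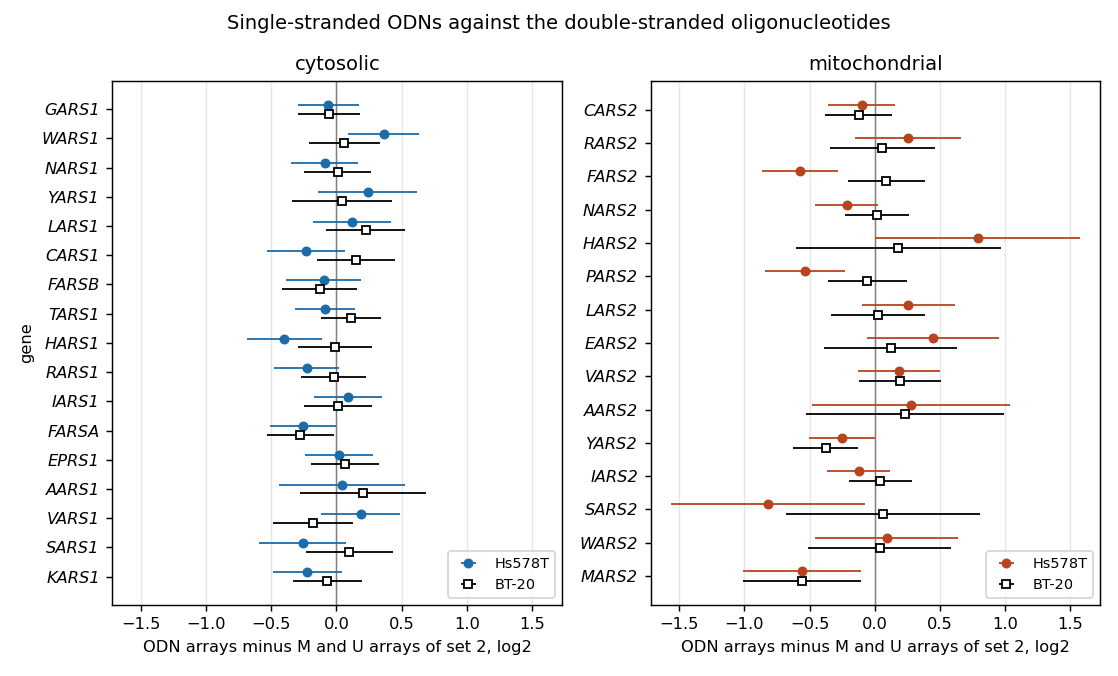
Log2 difference of the ODN2006 and control arrays from the M and U arrays of set 2 for each synthetase gene, with bars for the 95% interval, in Hs578T (filled) and BT-20 (open squares), cytosolic on the left and mitochondrial on the right. FARS2 in Hs578T, at -0.58, is the gene that was called, and most other intervals cross 0.

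ODN2006 against its GpC control asked about CpG in single-stranded DNA, with 1 array of each kind for each line. Its error was taken from the M and U groups, which have replicates, and the lone arrays were assumed to vary like them. Over both lines limma called 0.00948% of 10543 genes, which is 1 gene, and 0 synthetases, with 490 genes at an unadjusted p under 0.05. SARS2 had the largest difference, with 3.71 against 4.52 in Hs578T and 6.35 against 6.89 in BT-20 (log2 -0.68, SE 0.22, adjusted p = 0.975), or -0.27 with values under 5 raised. WARS2 had 6.80 and 7.36, then 8.97 and 9.01 (log2 -0.30, SE 0.14). In Hs578T 16 of 17 cytosolic genes were lower with ODN2006, with a median of -0.09, where 6471 of all 10410 genes were lower and their median was -0.07. In BT-20 9 of 17 were higher, where 41.6% of all genes were.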

How the data were processed

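The 12 arrays (Affymetrix HG-U133 Plus 2.0) were summarized by the authors, and the deposited values are log2 GCRMA values, computed in R 2.4 per the submitters' processing notes, 1 for each of 54675 probe sets. Whether the arrays were normalized together is not given in the sources used here. The annotation table used gives 1 gene for 41097 probe sets, several for 1801 and none for 11777, and a gene took its probe set with the highest mean. The members and lists were chosen with earlier results of these data known.

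A gene was kept for a comparison where 2 or more of its arrays reached a log2 value of 5. The fit was made with limma 3.58.1 (R 4.3.3), by contrasts of group means and eBayes, with Benjamini-Hochberg adjustment over all genes tested and a two-sided threshold of 0.05. M, U and line comparisons used the 8 M and U arrays, the ODN comparison the 8 arrays that are not of set 1, and ODN2006 against its control all 12. Every member could be named. Values by array are given for members called and for up to 8 cytosolic and 5 mitochondrial members with the largest differences, some of them in brief, and from each other list the 4 genes of lowest p, or fewer, may be named. Whether M and U of a set are paired was checked by their deviations from the group means, which correlated at 0.599 in Hs578T and 0.595 in BT-20 and at 0.0984 to 0.131 between lines. The sets were therefore also fitted as a block.

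The fits were first tested on simulated data. The number of arrays limits the precision. Alternatives covered the filter, a floor at 5, eBayes with trend, quantile normalization and housekeeping centring. They also covered the mean over probe sets, the block, all 12 arrays and each array left out. The centring used the median of 11 measured housekeeping genes, which was the value of PGK1 in every array. Promoter windows are those of RefSeq on GRCh38.p14, and 30 of the 35 members matched. Protein sequences were not used here. The gene that the labels name for the M and U sequence is not reported here.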

Additional observations from a re-analysis of the deposited data

How the results depend on the processing

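In the comparisons of M with U, no synthetase was called in the main setting or under any alternative. The same held for the ODNs in BT-20, for the difference between lines with the ODNs, and for ODN2006 against its control. Changes of sign in values that were never called were not counted. In the other comparisons a value had to stay on its side of the threshold and, where called, keep its sign. Between the lines, 244 of 255 values under other settings and 250 of 256 with an array left out did so, and with the ODNs in Hs578T 241 of 255 and 247 of 256. The replicate block (set within line) could be fitted in 6 comparisons. Between the lines it raised the number of genes called from 7769 to 8431, of them 15 cytosolic and 12 mitochondrial synthetases as before. The block changed 0 calls of synthetases. The medians could not move with it, because each set holds every M and U group of a line once. With housekeeping centring the line medians were 0.084 for cytosolic and -1.13 for mitochondrial genes, EPRS1 had -0.37, IARS1 -0.061, RARS1 -0.054 and NARS2 -0.32, and the cytosolic medians of M against U were -0.054 in Hs578T and -0.027 over both lines. With the mean over probe sets the cytosolic median between the lines was 0.40. With the ODNs it was then -0.013 in Hs578T and -0.0055 for the difference between lines. The 2 cytosolic genes called with the ODNs in Hs578T were SARS1 with 0.64 (adjusted p = 0.0241) and YARS1 with 1.44 (adjusted p = 0.0115). With values under 5 raised, the mitochondrial median of M against U in Hs578T was -0.095. Line calls were lost for HARS1, TARS1, IARS1, RARS1 and FARS2 with housekeeping centring, where EPRS1, NARS2 and PARS2 gained a call as lower, and for FARSB and SARS1 with the mean over probe sets. The AARS1 line call was lost without any 1 of 5 arrays and without the filter, and that of LARS2 without the U array of set 1 in BT-20. The cause was not tested for any of these.

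For the ODNs in Hs578T, 2 mitochondrial genes (FARS2 and PARS2) were called with a filter of at least 4 arrays, with the floor and with quantile normalization, 0 with housekeeping centring, and 4 with all 12 arrays. HARS1 made 1 cytosolic call with trend and robust eBayes, with 1444 genes called in all, and all 12 arrays gave 2 cytosolic calls and 1570 genes. In BT-20, 4 genes were called without the filter and 7 with all 12 arrays. The difference between lines had 67 genes without the filter, 1 with at least 4 arrays, 50 with the floor and 119 with all 12 arrays. ODN2006 against its control had 150 genes without the filter, 3 with the floor, 0 with trend and robust eBayes and 0 in the 4 ODN arrays alone.

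With single arrays left out, the mitochondrial line median ran from -0.79 to -0.57. For M against U the cytosolic medians ran from -0.080 to 0.057 in Hs578T, from 0.032 to 0.14 in BT-20, from -0.031 to 0.048 over both lines and from -0.21 to -0.021 for the difference, and the mitochondrial ones from -0.083 to 0.025 in BT-20 and from -0.29 to -0.082 for the difference. The genes called with the ODNs in Hs578T ran from 50 without the ODN2006 array to 1510 without the U array, and the mitochondrial calls from 0 to 2. In BT-20 they ran from 0 to 4, the latter without the control array. For the difference between lines they ran from 1 to 123 (without the ODN2006 and the U array of Hs578T), the cytosolic median from -0.15 to 0.00012 and the mitochondrial one from -0.21 to 0.14. For ODN2006 against its control, 0 or 1 gene was called, and leaving out an ODN array gives no value there.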

Other observations

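Of the 32 measured synthetase genes, 18 had more than 1 probe set of their own. Among 19 further probe sets with a mean of 5 or above, 18 gave the line difference the same sign as the probe set used. The exception was the second of SARS1, with 0.36 where the first had -1.01. The same probe set of SARS1 had a mean of 9.37 with the ODNs in Hs578T and 7.83 with M and U of set 2, while the first had 12.15 and 12.41. The second probe set of YARS1 had 7.81 and 5.16 in those arrays (the first 12.14 and 11.90), and the second of FARSB had 5.57 and 4.35 (the first 10.91 and 11.01). These genes were chosen after their values were seen, and the further probe sets were not tested one by one.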
